A study of Mus musculus with 12 samples.

Results

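The genes of arginine and nitric oxide metabolism were followed in mouse bone marrow-derived macrophages of 2 genotypes, with and without TNF. The set has 9 genes, taken by symbol through their Ensembl identifiers: the arginases Arg1 and Arg2, the inducible nitric oxide synthase Nos2 and its cofactor enzyme Gch1, the arginine transporters Slc7a2 and Slc7a1, the arginine-recycling enzymes Ass1 and Asl, and the polyamine enzyme Odc1. All 9 were found, among 24465 genes listed in either deposited table and 19868 listed in both.

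Bone marrow-derived macrophages are grown from marrow progenitors in culture, and ribosome-depleted total RNA was sequenced in 12 libraries, 3 in each of 4 groups. The groups were Klf6fl/fl:Lyz2cre with TNF, Lyz2cre with TNF, untreated Klf6fl/fl:Lyz2cre and untreated Lyz2cre, where TNF, an inflammatory cytokine, was given at 10 ng/ml for 6 h. Every group carried Lyz2cre, a Cre recombinase placed in the lysozyme 2 gene and active in myeloid cells. Klf6fl/fl:Lyz2cre cells also had both copies of Klf6, a Krüppel-like zinc-finger transcription factor, flanked by loxP sites. The labels give neither the age, sex and strain background of the mice nor the source of each replicate. P-values therefore measure only how far these libraries spread, which may be technical.

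Macrophages take up arginine through cationic amino acid transporters and use it in competing ways. Arginase splits it into urea and ornithine, the source of polyamines and proline, whereas inducible nitric oxide synthase oxidizes it to nitric oxide and citrulline with tetrahydrobiopterin as a cofactor. Citrulline is turned back into arginine by argininosuccinate synthase and argininosuccinate lyase. High arginase and high inducible nitric oxide synthase are textbook marks of alternatively and inflammatory activated mouse macrophages.

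The libraries held 16.9 to 23.4 M whole reads, with reads on 17143 to 20169 genes. Klf6 averaged 4161 ± 43.4 normalized counts in Klf6fl/fl:Lyz2cre and 7447 ± 255 in Lyz2cre libraries with TNF, and 7101 ± 269 in Klf6fl/fl:Lyz2cre and 10118 ± 174 in Lyz2cre libraries untreated (SD, n = 3 each), lower in Klf6fl/fl:Lyz2cre by 0.84 and 0.51 on the log2 scale (limma adjusted p = 4.34e-11 and 7.15e-10). The values are per gene, and the labels do not name the floxed part. All 10 macrophage markers had reads in every group, with a summed level of 10304 to 10352 RPM (reads scaled to a library total of 1 M) in Klf6fl/fl:Lyz2cre and 11052 to 11184 in Lyz2cre libraries with TNF, and of 7435 to 7891 and 12908 to 12984 untreated. Of these, Lyz2 itself averaged 56.6 RPM in Klf6fl/fl:Lyz2cre and 80.2 in Lyz2cre cells with TNF, and 12.9 and 41.2 untreated. By the limma test described below, 4 of the 10 markers were higher and 6 lower in Klf6fl/fl:Lyz2cre cells with TNF. Untreated, 1 was higher and 9 were lower. Over all genes tested, 26.5% were higher and 30.8% lower with TNF, and 27.6% and 29.3% untreated. The 16 stromal markers, such as collagens, and the 7 monocyte markers are given beside Arg1. The 9 neutrophil markers summed to 9.22 to 11.6 RPM in Klf6fl/fl:Lyz2cre and 12.3 to 13.6 in Lyz2cre libraries with TNF, where Ly6g and Retnlg had no reads in any library. Untreated, they summed to 419 to 446 RPM in Klf6fl/fl:Lyz2cre and 509 to 566 in Lyz2cre libraries. The 7 endothelial markers summed to 39.7 to 120 RPM, and the dendritic, mast cell and lymphocyte lists to 0.254 to 11.5 RPM. Replicates of a group differed by more than sampling noise, with a chi-square per gene of 2.27 to 8.66, and both pairs above 6 held replicate 2 of Lyz2cre with TNF.

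Levels are given as normalized counts, which are read counts divided by the size factor of the library. Both genotypes were set against each other inside 1 table at a time with limma on log2(value + 1), a gene being called at a Benjamini-Hochberg adjusted p under 0.05, and each fold change below is Klf6fl/fl:Lyz2cre over Lyz2cre on that scale. With TNF, all 9 genes were tested, and 2 were higher in Klf6fl/fl:Lyz2cre cells (Arg1 and Arg2), 4 were lower (Nos2, Gch1, Slc7a2 and Slc7a1) and 3 did not pass the test (Ass1, Asl and Odc1). Over all 11717 genes tested with TNF, 57.3% passed, 26.5% as higher and 30.8% as lower. Untreated, 8 genes were tested, and 5 were higher (Arg1, Slc7a1, Slc7a2, Ass1 and Odc1), 2 were lower (Gch1 and Asl) and Arg2 did not pass, against 56.9% of all 12715 genes, 27.6% as higher and 29.3% as lower. Nos2 had too few untreated reads to enter that test. The difference between the genotype effects, with TNF minus untreated, was lower for 7 genes, higher for 0 and not past the test for Arg2 and Asl, while 48.9% of all 13062 genes passed, 24.1% as higher and 24.9% as lower. When libraries were scaled to their total reads in place of size factors, the median of all genes moved up by 0.33 with TNF and 0.13 untreated on the log2 scale, and Ass1, Asl and Odc1 then passed as higher with TNF.

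**Figure D1:**
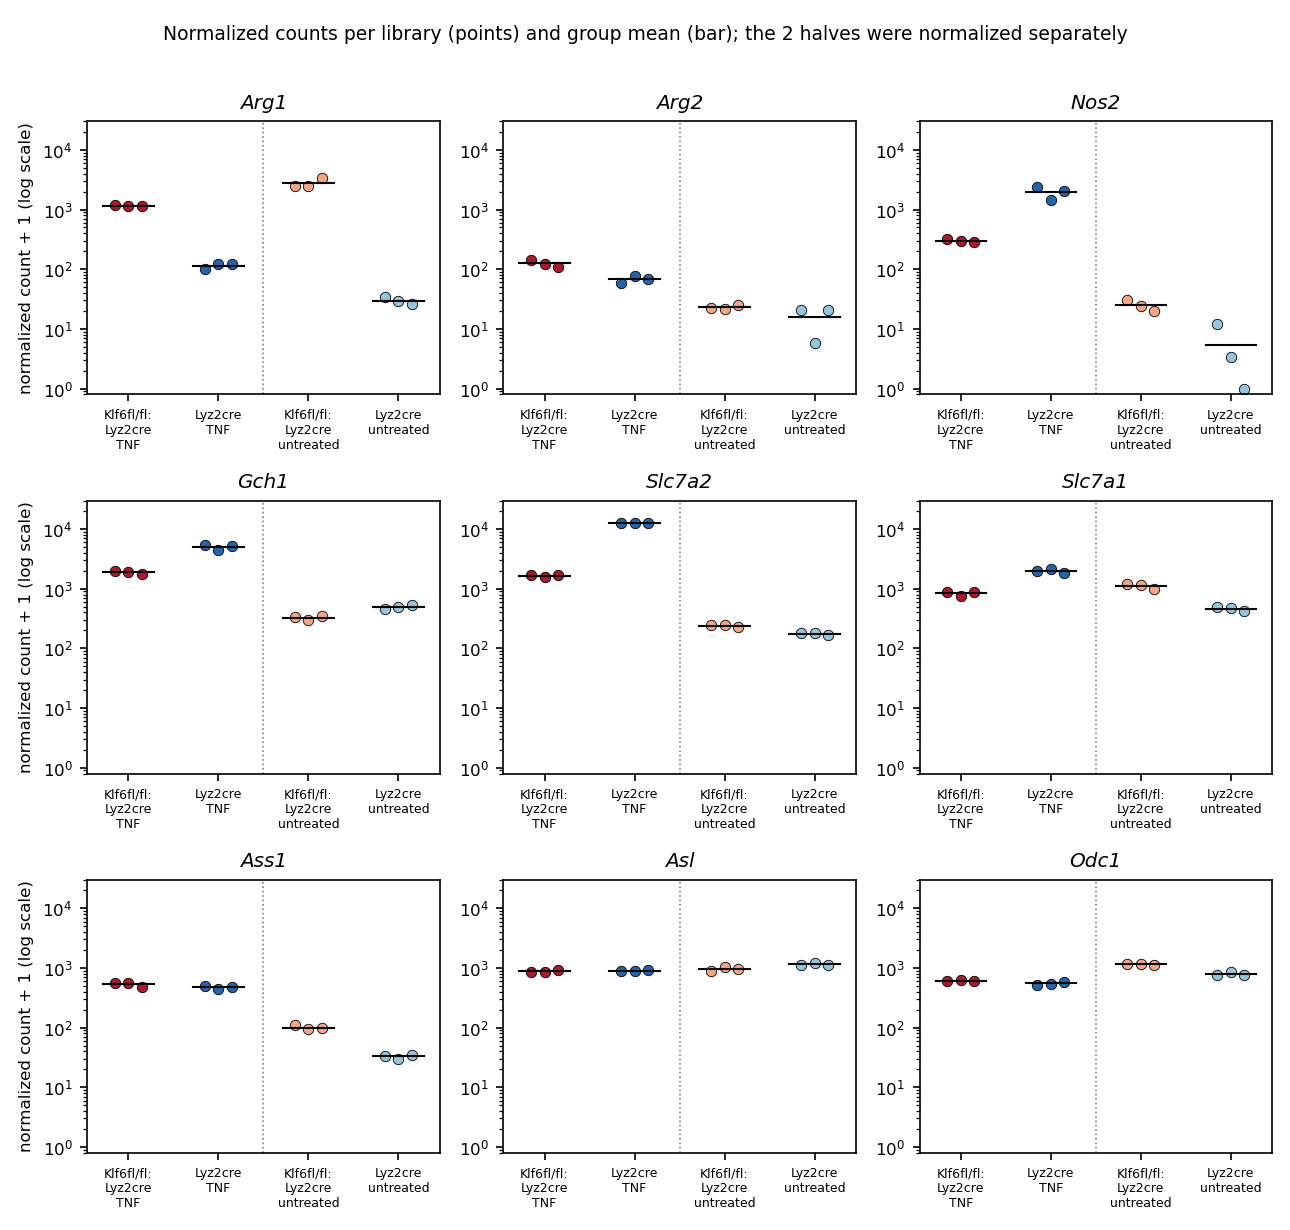
Normalized counts (log axis, value + 1) of the 9 genes in each library (points) with the group mean (bar), for Klf6fl/fl:Lyz2cre and Lyz2cre with TNF on the left of the dotted line and untreated on its right; the sides were normalized separately. With TNF, Arg1 lies near 1144 in Klf6fl/fl:Lyz2cre and 113 in Lyz2cre libraries, and Slc7a2 near 1636 and 12645.

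Arg1, cytosolic arginase, lies on the minus strand at chr10:24915221-24927484 (GRCm38). With TNF it had 1168, 1138 and 1127 normalized counts in Klf6fl/fl:Lyz2cre libraries, against 98.5, 119 and 122 in Lyz2cre libraries. The groups were far apart, with a fold change of 10.1 (log2 3.33, SE 0.10, limma adjusted p = 4.74e-14). Untreated, the counts were 2451, 2524 and 3399 in Klf6fl/fl:Lyz2cre libraries, against 32.8, 27.8 and 25.2 in Lyz2cre libraries, the latter from 30, 23 and 23 reads. Here the gap was wider, at 93.8-fold (log2 6.55, SE 0.12, adjusted p = 1.21e-17), and the difference between both effects was -3.22 (limma adjusted p = 7.16e-12). Replicate 3 was the highest of the untreated Klf6fl/fl:Lyz2cre libraries, and no library of either genotype came near the other's range.

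The level of Arg1 with TNF lay on opposite sides of the untreated one in the 2 genotypes. The tables with and without TNF were normalized separately, so ratios between them are a description with no test. The neutrophil markers, given above, also lay far lower with TNF in both genotypes. A difference in cells between the conditions cannot be told apart from TNF in these ratios, here and below. Arg1 was 2.44-fold lower with TNF in Klf6fl/fl:Lyz2cre cells, while in Lyz2cre cells it was 3.95-fold higher. On the RPM scale these were 2.12-fold lower and 3.98-fold higher.

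Stromal markers were, like Arg1, higher in Klf6fl/fl:Lyz2cre cells in both conditions. Their summed level with TNF lay below the untreated one in both genotypes, that of Arg1 in Klf6fl/fl:Lyz2cre cells only. In Lyz2cre cells, Fbn1 (10.1 RPM with TNF and 6.90 untreated) and Pdgfrb (5.29 and 5.07) were not lower with TNF. The summed level of the stromal markers was 236 to 283 RPM in Klf6fl/fl:Lyz2cre and 41.4 to 57.7 in Lyz2cre libraries with TNF, and 3495 to 3726 and 171 to 206 untreated. Of the stromal markers, 11 of 13 tested were higher in Klf6fl/fl:Lyz2cre cells with TNF and 14 of 14 untreated, none was lower, and none was at 0 in a whole group. Over all genes tested, 26.5% were higher and 30.8% lower with TNF, and 27.6% and 29.3% untreated. Pdgfra and Cxcl12 averaged 0.51 and 0.60 RPM in Lyz2cre cells with TNF, so only the Klf6fl/fl:Lyz2cre libraries took them over the filter on low values there. The 7 monocyte markers summed to 287 to 329 RPM in Klf6fl/fl:Lyz2cre and 145 to 167 in Lyz2cre libraries with TNF, with 2 higher and 2 lower, and to 1070 to 1145 and 318 to 348 untreated, with 7 higher. The part of these cells in the result was not tested. In these bulk libraries more or fewer cells of a type cannot be told apart from more or less RNA per cell, for this and all later genes.

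Arg2, the mitochondrial arginase, lies on the plus strand at chr12:79130777-79156301. The TNF libraries showed 143, 123 and 109 normalized counts in Klf6fl/fl:Lyz2cre libraries, against 58.7, 77.2 and 67.6 in Lyz2cre libraries. All Klf6fl/fl:Lyz2cre libraries were higher, with a fold change of 1.83 (log2 0.87, SE 0.17, limma adjusted p = 0.000457). Untreated, Arg2 had 21.7, 20.9 and 24.4 in Klf6fl/fl:Lyz2cre libraries, against 19.7, 4.84 and 19.7 in Lyz2cre libraries. These came from 26, 21 and 30 reads, against 18, 4 and 18, and only the Klf6fl/fl:Lyz2cre libraries took the gene over the filter on low values. The groups did not overlap, but 2 of 3 Lyz2cre libraries lay close beneath, and the difference did not pass (log2 0.78, 95% interval -0.18 to 1.73, adjusted p = 0.157); without Lyz2cre replicate 2 it was 0.17. The level of Arg2 was 5.59-fold higher with TNF in Klf6fl/fl:Lyz2cre cells and 4.60-fold higher in Lyz2cre cells, as a ratio between the separately normalized tables. Of its 1428 exon bases, Arg2 shares 285 with the opposite-strand gene Vti1b and 116 with the antisense gene Gm48780. Since the use of strand in counting is not stated, its reads in the shared bases cannot be told from theirs.

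Nos2, the inducible nitric oxide synthase, lies on the plus strand at chr11:78920787-78960254. With TNF, normalized counts of Nos2 were 314, 294 and 282 in Klf6fl/fl:Lyz2cre libraries, against 2412, 1458 and 2070 in Lyz2cre libraries. Lyz2cre replicate 2 was the lowest of its group and still well above every Klf6fl/fl:Lyz2cre library. The fold change was 6.52 downwards (log2 -2.70, SE 0.13, limma adjusted p = 2.19e-11), and without that replicate the log2 value was -2.91.

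Untreated, Nos2 was close to the limit of detection. It had 36, 23 and 23 reads in Klf6fl/fl:Lyz2cre libraries, against 10, 2 and 0 in Lyz2cre libraries, or 30.0, 22.9 and 18.7 against 10.9, 2.42 and 0 normalized counts. The library with no read allows a level of up to 3.28 normalized counts, taking 3 reads as the limit that a count of 0 allows, for counting error only. Every Klf6fl/fl:Lyz2cre library was above every Lyz2cre library. The gene was left out by the filter on low values, and with no filter it had a log2 fold change of 2.83 (SE 0.66, limma adjusted p = 0.0015).

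The genotype effects on Nos2 with TNF and untreated differed by -5.53 (limma adjusted p = 3.19e-06). Its size rested on the near-zero untreated Lyz2cre libraries: it was -3.96 with a pseudocount of 10, -6.43 without Lyz2cre untreated replicate 1 and -4.64 without replicate 3. Between the separately normalized tables, Nos2 was 12.4-fold higher with TNF in Klf6fl/fl:Lyz2cre cells. In Lyz2cre cells the ratio was 444, or 8.80 on the log2 scale, and 10.68 without untreated replicate 1.

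Arginase and nitric oxide synthase can be set side by side per length. With TNF, Arg1 stood at 31.2 ± 0.607 and Nos2 at 4.09 ± 0.224 RPM per kb of exon in Klf6fl/fl:Lyz2cre cells, against 2.46 ± 0.288 and 21.7 ± 5.06 in Lyz2cre cells (SD, n = 3 each). Arg1 therefore took 88.1 to 88.8% of the sum of both in Klf6fl/fl:Lyz2cre libraries, against 7.48 to 14.0% in Lyz2cre libraries. Untreated, the share was 99.4 to 99.7% in Klf6fl/fl:Lyz2cre libraries, against 85.6 to 100% in Lyz2cre libraries, where Nos2 rested on at most 10 reads. The order of both genes was thus turned between genotypes with TNF, and Arg1 led in both genotypes untreated.

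**Figure D2:**
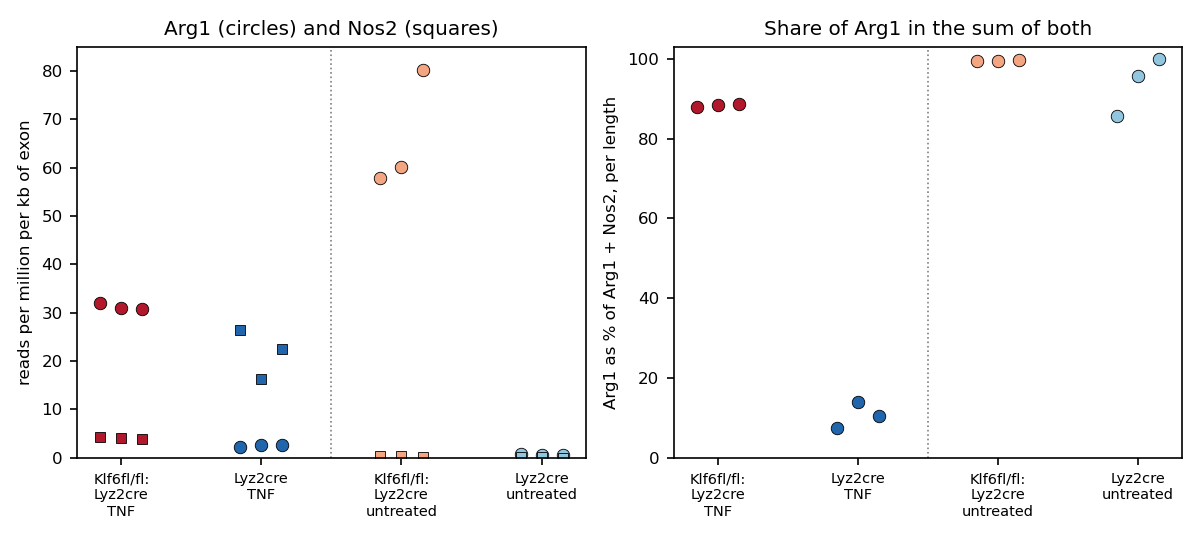
Left, Arg1 (circles) and Nos2 (squares) in RPM per kb of exon in each library; right, Arg1 as a percentage of the sum of both. With TNF the Arg1 share is 88.1 to 88.8% in Klf6fl/fl:Lyz2cre and 7.48 to 14.0% in Lyz2cre libraries.

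Gch1, GTP cyclohydrolase, makes the first step of tetrahydrobiopterin synthesis and lies on the minus strand at chr14:47153895-47189413. The normalized counts with TNF were 2016, 1934 and 1773 in Klf6fl/fl:Lyz2cre libraries, against 5367, 4476 and 5253 in Lyz2cre libraries. No library overlapped, with a 2.63-fold lower level in Klf6fl/fl:Lyz2cre cells (log2 -1.40, SE 0.07, limma adjusted p = 2.18e-11). Untreated, the counts were 336, 304 and 345 in Klf6fl/fl:Lyz2cre libraries, against 459.6, 494 and 529 in Lyz2cre libraries. The direction was the same with a smaller gap of 1.50-fold (log2 -0.59, SE 0.08, adjusted p = 6.8e-06), and the effects differed by -0.81 (limma adjusted p = 2.41e-06). Gch1 was the only gene of the 9 that was lower in Klf6fl/fl:Lyz2cre cells past the test in both conditions. Its level was 5.81-fold higher with TNF in Klf6fl/fl:Lyz2cre cells and 10.2-fold higher in Lyz2cre cells, as a ratio between the tables.

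Promoter sequences from RefSeq, 250 bases before to 50 after the start (GRCm38.p6), were matched for 4 of the 9 genes, Slc7a1, Ass1, Odc1 and Gch1. The promoters of Gch1 and Slc7a1 are shown since both genes were lower in Klf6fl/fl:Lyz2cre cells with TNF and went opposite ways untreated. Capitals mark CACCC, a box that Krüppel-like factors bind, on either strand, and the kappaB motif, which binds the NF-kappaB factors that TNF activates. The Gch1 window lies at chr14:47189364-47189663 and the Slc7a1 window at chr5:148399855-148400154, both printed 5′ to 3′ on the minus strand.
Gch1: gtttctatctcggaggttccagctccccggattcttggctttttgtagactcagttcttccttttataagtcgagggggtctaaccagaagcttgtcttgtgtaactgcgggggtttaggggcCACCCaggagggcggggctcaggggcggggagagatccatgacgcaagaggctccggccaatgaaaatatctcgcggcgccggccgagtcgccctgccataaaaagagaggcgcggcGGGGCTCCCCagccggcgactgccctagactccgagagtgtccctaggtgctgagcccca
Slc7a1: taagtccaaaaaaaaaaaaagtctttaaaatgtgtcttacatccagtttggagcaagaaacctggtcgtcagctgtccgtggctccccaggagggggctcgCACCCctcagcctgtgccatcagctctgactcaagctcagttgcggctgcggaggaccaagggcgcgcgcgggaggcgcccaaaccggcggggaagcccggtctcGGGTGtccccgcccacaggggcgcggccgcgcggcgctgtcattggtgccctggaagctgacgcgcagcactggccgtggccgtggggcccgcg
Gch1 held CACCC at -127 and 1 kappaB match at -10 from the start, and Slc7a1 held CACCC at -149 and, on the opposite strand, at -44, with no kappaB match. A start of Slc7a1 further downstream, with its window at chr5:148392766-148393065, held neither CACCC nor a kappaB match. Of 32851 promoters of the same length, 57.5% held CACCC and 8.46% a kappaB match. Ass1 held 1 CACCC and Odc1 2, with no kappaB match. A match is a run of letters and no measurement of binding.

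Slc7a2, the transporter CAT2 that supplies arginine to inducible nitric oxide synthase in activated macrophages, lies on the plus strand at chr8:40862396-40922308. With TNF it had 1667, 1574 and 1666 normalized counts in Klf6fl/fl:Lyz2cre libraries, against 12601, 12851 and 12484 in Lyz2cre libraries. The libraries of each genotype lay close together, and the level was 7.73-fold lower in Klf6fl/fl:Lyz2cre cells (log2 -2.95, SE 0.04, limma adjusted p = 1.85e-17). Untreated, the counts were 249, 246 and 227 in Klf6fl/fl:Lyz2cre libraries, against 180.5, 180.4 and 167 in Lyz2cre libraries. Here Klf6fl/fl:Lyz2cre cells were higher, by 1.37-fold (log2 0.45, SE 0.10, adjusted p = 0.00121), and the difference between the effects was -3.40 (limma adjusted p = 2.39e-17). The level was 6.79-fold higher with TNF in Klf6fl/fl:Lyz2cre cells and 71.8-fold higher in Lyz2cre cells, between the separately normalized tables. Slc7a2 shares 635 of its 9135 exon bases with the opposite-strand noncoding gene Gm26584, so its reads in the shared bases are uncertain in the way of Arg2.

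Slc7a1, the transporter CAT1 found in most tissues, lies on the minus strand at chr5:148327410-148399904. Libraries with TNF showed 876, 749.7 and 875 normalized counts in Klf6fl/fl:Lyz2cre libraries, against 1950.5, 2134 and 1854 in Lyz2cre libraries. Every Klf6fl/fl:Lyz2cre library was lower, by 2.38-fold (log2 -1.25, SE 0.07, limma adjusted p = 2.43e-10). Untreated, the counts were 1196, 1159 and 1001 in Klf6fl/fl:Lyz2cre libraries, against 488, 475 and 416 in Lyz2cre libraries. The order was turned, with a 2.43-fold higher level in Klf6fl/fl:Lyz2cre cells (log2 1.28, SE 0.08, adjusted p = 6.99e-11), and the difference between the effects was -2.53 (limma adjusted p = 4.53e-13). Between the tables, Slc7a1 was 1.34-fold lower with TNF in Klf6fl/fl:Lyz2cre cells and 4.31-fold higher in Lyz2cre cells.

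**Figure D3:**
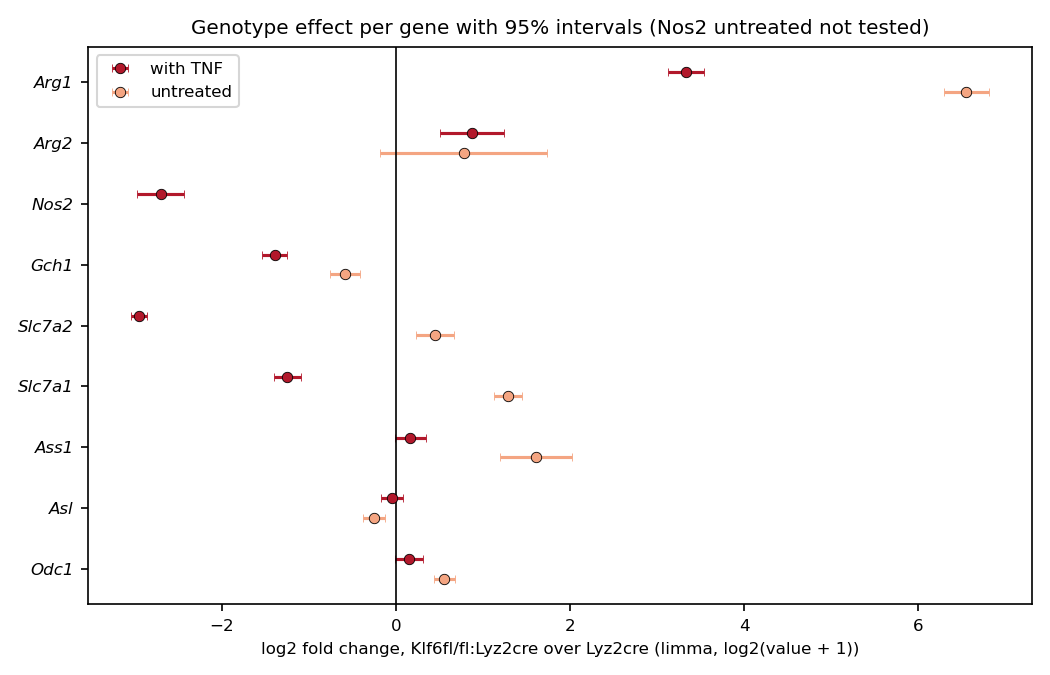
Log2 fold change of Klf6fl/fl:Lyz2cre over Lyz2cre (limma) with 95% intervals for the 9 genes, with TNF (dark) and untreated (light). Slc7a2 (-2.95 and 0.45) and Slc7a1 (-1.25 and 1.28) lie on opposite sides of 0, Arg1 lies right of it in both, and Nos2 untreated was not tested.

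Ass1, argininosuccinate synthase and the first step from citrulline back to arginine, lies on the plus strand at chr2:31470207-31520672. With TNF, Ass1 stood at 558.5, 559 and 487 normalized counts in Klf6fl/fl:Lyz2cre libraries, against 504, 449.9 and 478 in Lyz2cre libraries. The groups overlapped and the difference did not pass (log2 0.16, 95% interval -0.01 to 0.34, limma adjusted p = 0.107); it passed without Klf6fl/fl:Lyz2cre replicate 3 (0.23, adjusted p = 0.037) and with edgeR (0.20, adjusted p = 0.0471). Untreated, Ass1 had 109, 92.7 and 95.8 in Klf6fl/fl:Lyz2cre libraries, against 32.8, 29.1 and 33.9 in Lyz2cre libraries. All Klf6fl/fl:Lyz2cre libraries were higher, by 3.04-fold (log2 1.61, SE 0.20, adjusted p = 1.37e-06), and the effects differed by -1.44 (limma adjusted p = 6.48e-07). The level was 5.39-fold higher with TNF in Klf6fl/fl:Lyz2cre cells and 15.0-fold higher in Lyz2cre cells, between the tables.

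Asl, argininosuccinate lyase, the enzyme after Ass1, lies on the minus strand at chr5:130011258-130029247. Asl after TNF stood at 838, 863 and 912 normalized counts in Klf6fl/fl:Lyz2cre libraries, against 878, 894 and 926 in Lyz2cre libraries. The groups overlapped, and the difference did not pass (log2 -0.05, 95% interval -0.18 to 0.09, limma adjusted p = 0.539); scaled to total reads it turned to 0.28 (adjusted p = 0.00079). Untreated, Asl had 897, 1056 and 951.5 in Klf6fl/fl:Lyz2cre libraries, against 1138, 1220.3 and 1101 in Lyz2cre libraries. It was lower in every Klf6fl/fl:Lyz2cre library, by 1.19-fold (log2 -0.25, SE 0.06, adjusted p = 0.00193), a call lost when libraries were scaled to total reads (-0.12, adjusted p = 0.108). The difference between the effects, 0.21, did not pass (limma adjusted p = 0.0623). Between the tables, the level with TNF was 0.900 of the untreated one in Klf6fl/fl:Lyz2cre cells (1.04 in RPM) and 0.780 in Lyz2cre cells, so Asl and Ass1, adjacent steps of the same route, stood apart in their ratios.

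Odc1, ornithine decarboxylase and the first enzyme of polyamine synthesis from the product of arginase, lies on the plus strand at chr12:17544794-17551505. After TNF, Odc1 stood at 592, 629.7 and 604 normalized counts in Klf6fl/fl:Lyz2cre libraries, against 510.3, 546 and 589 in Lyz2cre libraries. The groups did not overlap, but lay close, and the difference did not pass (log2 0.15, 95% interval -0.01 to 0.31, limma adjusted p = 0.0991); with edgeR it was 0.19 and passed (adjusted p = 0.0422). Untreated, Odc1 had 1171, 1173 and 1115 in Klf6fl/fl:Lyz2cre libraries, against 746, 843 and 767 in Lyz2cre libraries. It was 1.47-fold higher in Klf6fl/fl:Lyz2cre cells (log2 0.56, SE 0.06, adjusted p = 1.53e-07). The effects differed by -0.40 (limma adjusted p = 0.00131), and by -0.21 when scaled to total reads, where the difference no longer passed (adjusted p = 0.0616). Between the tables, the level was 1.89-fold lower with TNF in Klf6fl/fl:Lyz2cre cells and 1.43-fold lower in Lyz2cre cells.

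Across the set, the level with TNF was at least 2-fold above the untreated one for 5 of the 9 genes in Klf6fl/fl:Lyz2cre cells (Arg2, Nos2, Gch1, Slc7a2 and Ass1), where 4.53% of 13015 genes were. In Lyz2cre cells 7 of the 9 were, with Arg1 and Slc7a1 in addition, against 9.77% of 12271 genes. These counts came out the same in RPM.

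Per length, the order of the genes differed between groups. With TNF, Arg1 led in Klf6fl/fl:Lyz2cre cells at 31.2 RPM per kb, ahead of Gch1 at 18.6 ± 1.21 and Ass1 at 13.5 ± 1.05, whereas Asl, Slc7a2 and Odc1 were within their spread of each other at 10.9 to 11.0. In Lyz2cre cells with TNF, Slc7a2 led at 67.1 ± 2.09, ahead of Gch1 at 39.0 ± 3.20 and Nos2 at 21.7, and Arg1 and Arg2 came last at 2.46 and 2.31, within their spread. Untreated Klf6fl/fl:Lyz2cre cells had Arg1 first at 66.1 ± 12.4, followed by Odc1 at 17.9 ± 0.551 and Asl at 10.6 ± 0.929. In untreated Lyz2cre cells Asl at 11.5 ± 0.541 and Odc1 at 11.1 ± 0.645 led within their spread, and Nos2 came last at 0.0487 ± 0.0630. The exon lengths are those of GENCODE vM21, which may differ from the annotation the counting used.

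The neighbouring pathway genes are described by lists, beside a median log2 fold change over all genes of -0.01 in either condition. The counts of each list stand against 26.5% of all genes tested called higher and 30.8% lower with TNF. Untreated, these shares were 27.6% and 29.3%. Scaled to total reads, the medians moved up by about the shift of all genes, and changes of sign are given below. Polyamine genes went both ways: with TNF 4 of 14 tested were higher in Klf6fl/fl:Lyz2cre cells and 3 lower (median -0.10), and untreated 6 of 15 were higher and 5 lower (median -0.03); scaled to total reads, 9 were higher and 2 lower with TNF, and both medians were above 0, at 0.23 and 0.11. Smox, spermine oxidase, was lower with TNF at 613 ± 17.9 normalized counts in Klf6fl/fl:Lyz2cre and 1325 ± 173 in Lyz2cre cells (log2 -1.10, limma adjusted p = 7.61e-09). Sat1, which acetylates spermidine and spermine for export and breakdown, was lower untreated at 4289 ± 89.0 in Klf6fl/fl:Lyz2cre and 7660.4 ± 134 in Lyz2cre cells (log2 -0.84, adjusted p = 4.8e-13, limma). Both were also lower in the other condition (log2 -0.62 for Smox untreated and -0.48 for Sat1 with TNF). The antizyme inhibitors, which protect ornithine decarboxylase from degradation, were among the genes called higher: Azin2 with TNF (log2 1.06, limma adjusted p = 0.00135) and Azin1 untreated (log2 0.88, limma adjusted p = 5.52e-12). Oaz2, an antizyme with the opposite role, was also higher with TNF (log2 0.27, limma adjusted p = 0.00501), as was Mtap, and untreated the spermidine and spermine synthases Srm and Sms, Eif5a and Mtap were higher too; Oaz2 and these were named after their values were seen.

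Of the tetrahydrobiopterin genes downstream of Gch1, 1 of 5 tested was higher and 1 lower with TNF (median 0.17), and 1 was higher and 2 lower untreated (median -0.13, and -0.00 scaled to total reads). Spr, sepiapterin reductase, the last synthetic step, was higher with TNF at 619 ± 47.0 normalized counts in Klf6fl/fl:Lyz2cre and 450.2 ± 40.5 in Lyz2cre cells (log2 0.46, limma adjusted p = 0.000272), opposite to Gch1. Pcbd2, a pterin recycling enzyme, was lower with TNF (log2 -0.83, limma adjusted p = 0.000401) and untreated (log2 -0.45, limma adjusted p = 0.00195). Untreated, Qdpr, which recycles the oxidized cofactor, was lower (log2 -0.57, limma adjusted p = 1.51e-07).

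Among enzymes of ornithine, proline, urea and creatine, 1 of 12 tested was higher and 3 were lower with TNF (median 0.07; 8 higher and 1 lower scaled to total reads), and 3 of 13 were higher and 7 lower untreated (median -0.21). Gatm, which uses arginine for the first step of creatine synthesis, was lower with TNF at 498 ± 16.1 normalized counts in Klf6fl/fl:Lyz2cre and 3326 ± 91.5 in Lyz2cre cells (log2 -2.74, limma adjusted p = 5.38e-16), and was lower untreated as well (log2 -1.21, limma adjusted p = 9.58e-13). Of the proline-synthesis genes, Pycr1, the last step, was higher untreated with 69.8 ± 4.93 in Klf6fl/fl:Lyz2cre and 11.5 ± 5.77 in Lyz2cre cells (log2 2.59, limma adjusted p = 1.6e-06). Untreated Lyz2cre cells averaged 0.55 RPM of Pycr1, so only the Klf6fl/fl:Lyz2cre libraries took it over the filter on low values. Aldh18a1, the step that leads from glutamate towards proline and ornithine, had 484 ± 25.0 in Klf6fl/fl:Lyz2cre and 177 ± 30.0 in Lyz2cre cells untreated (log2 1.46, limma adjusted p = 2.78e-09). With TNF, Aldh18a1 was lower (log2 -0.49, limma adjusted p = 0.00663), a call lost on scaling to total reads (-0.16, adjusted p = 0.305), and Got1, aspartate aminotransferase, was higher (log2 0.39, limma adjusted p = 0.000415) but lower untreated (log2 -0.21, limma adjusted p = 0.00134, a call lost on scaling to total reads). Glul, glutamine synthetase, was lower untreated at 3575 ± 213 in Klf6fl/fl:Lyz2cre and 8986 ± 109 in Lyz2cre cells (log2 -1.33, limma adjusted p = 7.44e-15).

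The other arginine transporters and sensors were split, with 3 of 8 tested higher and 3 lower with TNF (median 0.23), and 2 higher and 4 lower untreated (median -0.18). Slc7a7, a transporter that exports arginine in exchange for neutral amino acids, was lower in Klf6fl/fl:Lyz2cre cells with TNF at 413 ± 12.9 against 1111 ± 43.1 in Lyz2cre cells (log2 -1.43, limma adjusted p = 2.29e-11), and untreated at 305 ± 37.7 against 642 ± 31.8 (log2 -1.08, limma adjusted p = 5.14e-09). Slc7a6, its close relative, was higher untreated (log2 0.75, limma adjusted p = 1.14e-07). The cytosolic arginine sensor Castor1 and its relative Castor2 were higher with TNF (log2 1.19 and 0.73, limma adjusted p = 0.0027 and 3.51e-06), and the lysosomal arginine sensor Slc38a9 was lower untreated (log2 -0.61, limma adjusted p = 1.93e-06).

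Of the genes that control nitric oxide, 5 of 11 tested were higher and 1 was lower with TNF (median 0.36), and 8 of 13 were higher and 1 lower untreated (median 0.46). Scaled to total reads, 10 were higher and 1 lower in either condition, where 80.4% of all genes called with TNF and 68.0% of those called untreated were higher. Spsb4, of the family of ubiquitin ligase adaptors that target inducible nitric oxide synthase for degradation, had 164 ± 40.6 normalized counts in Klf6fl/fl:Lyz2cre and 16.7 ± 3.71 in Lyz2cre cells with TNF (log2 3.22, limma adjusted p = 9.64e-09). Its relative Spsb1 was the 1 gene called lower with TNF (log2 -0.92, limma adjusted p = 0.000719) and was higher untreated (log2 1.69, limma adjusted p = 1.95e-06). Ddah1, which breaks down methylated arginines that inhibit nitric oxide synthases, had 20.7 ± 1.36 in Klf6fl/fl:Lyz2cre and 2.01 ± 1.99 in Lyz2cre cells with TNF (log2 3.12, limma adjusted p = 0.000483; 1.36 with a pseudocount of 10 and 2.47 without Lyz2cre replicate 3). Untreated, Ddah1 had 251 ± 26.5 in Klf6fl/fl:Lyz2cre and 22.9 ± 7.18 in Lyz2cre cells (log2 3.43, limma adjusted p = 9.68e-11), and its relative Ddah2 was higher with TNF (log2 1.76, limma adjusted p = 0.000265). Gucy1b1, a subunit of the guanylate cyclase that nitric oxide activates, had 38.4 ± 10.6 in Klf6fl/fl:Lyz2cre and 3.28 ± 2.89 in Lyz2cre cells untreated (log2 3.56, limma adjusted p = 6.56e-05; 1.87 with a pseudocount of 10 and 2.71 without Lyz2cre replicate 2). In Lyz2cre cells, Spsb4, Ddah1 and Ddah2 with TNF averaged 0.81, 0.098 and 0.70 RPM, and Gucy1b1 untreated 0.16. Only the Klf6fl/fl:Lyz2cre libraries, where they are high, took these genes over the filter on low values in those tests. Their calls as higher and their part in the counts of this list depend on that.

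Transcription factors known to act on Nos2 or Arg1, Klf6 among them, had 4 of 14 tested higher and 8 lower with TNF (median -0.15; 8 higher, 5 lower and a median of 0.18 scaled to total reads), and 6 of 15 higher and 8 lower untreated (median -0.13, and 0.00 scaled to total reads). Irf1, an interferon regulatory factor required for Nos2 induction in mouse macrophages, was lower with TNF at 3854 ± 172 normalized counts in Klf6fl/fl:Lyz2cre and 12021 ± 979 in Lyz2cre cells (log2 -1.64, limma adjusted p = 2.93e-13) and higher untreated at 3395 ± 831 in Klf6fl/fl:Lyz2cre and 1706 ± 27.0 in Lyz2cre cells (log2 0.97, limma adjusted p = 1.76e-07). Stat3 was lower with TNF (log2 -1.23, limma adjusted p = 1.35e-11), and Batf3 was lower untreated (log2 -0.93, limma adjusted p = 0.0015). Klf6, the floxed gene, is among the 8 lower in both conditions, a call given in advance by the genotype, and it enters both medians. The turn of sign between the conditions in Irf1 was also seen in Slc7a1, Slc7a2, Spsb1 and Aldh18a1, the last with its call with TNF lost on scaling to total reads. Over all genes, 48.9% passed the test of a difference between the conditions, which also takes in genes with the same sign in both. How many of all genes turned sign was not counted. A link between Irf1 and the genes that shared its turn was not tested.

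**Figure D4:**
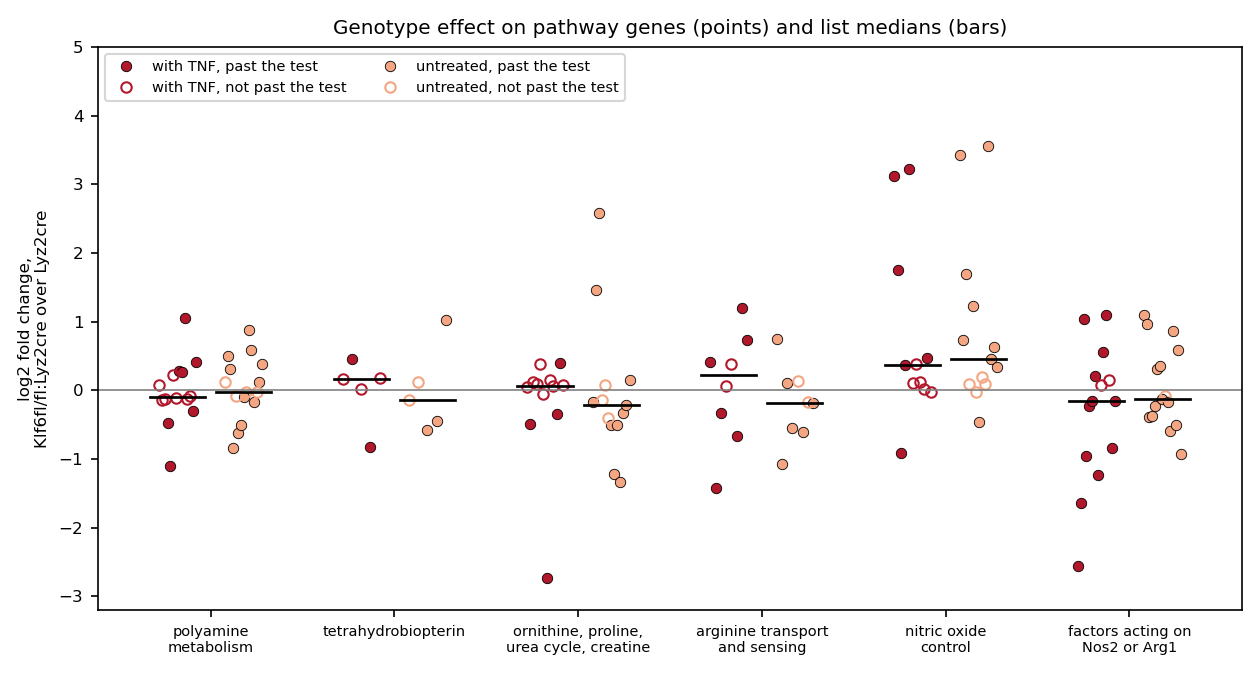
Log2 fold change of Klf6fl/fl:Lyz2cre over Lyz2cre (limma) for each tested gene of 6 pathway lists, with TNF (dark) and untreated (light); filled points passed the test and bars mark list medians. Calls go both ways in every list, and the nitric oxide control list has the highest medians, 0.36 with TNF and 0.46 untreated.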

How the data were processed

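The authors deposited, per the file headers, a table of the untreated and a table of the TNF libraries, each holding per gene a normalized signal, which is a read count divided by a size factor. The unit was read from the values: each was a whole number of reads times 1 factor per library (largest deviation 5.7e-05 reads, tolerance 0.001), the factors matched inverse median-of-ratios size factors of that table, and 100.0% of values came out as whole reads. All 12 columns were used. RNA was extracted with the High Pure kit and 150 ng went into TruSeq Stranded Total RNA libraries after depletion of ribosomal RNA (Ribo Zero Gold), per the labels' protocols. Per the submitters' processing notes, Cufflinks, GRCm39 and mm10 are named with no role. The aligner, annotation and strand setting were not given in the sources used here. Reads had no molecular identifiers.

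Symbols were matched for 21411 of 21437 TNF and 22867 of 22896 untreated identifiers, and positions came from GENCODE vM21 (GRCm38), the assembly also called mm10. Tests were limma (trended variance) on log2(value + 1), which understates folds of low genes, over genes with at least 1 RPM in at least 3 libraries. The members and lists were chosen with earlier results of these data known. Named genes were the 9 members, Klf6, up to 3 genes per list and comparison with the largest absolute log2 fold change past the test, and the 5 genes most like Arg1 and Nos2; some of these are not reported here. Promoters were taken from the genes that the RefSeq table holds, after the data had been seen. Alternatives were edgeR, DESeq2, other filters, thresholds, pseudocounts and scalings, each library left out and a replicate block; the tests were checked on simulated counts. Python 3.11.15 ran with pandas 2.3.3, numpy 2.4.6, matplotlib 3.10.9 and scipy 1.17.1, and R 4.3.3 with DESeq2 1.42.0, edgeR 4.0.16 and limma 3.58.1.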

Additional observations from a re-analysis of the deposited data

Results flagged for a closer look

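The genotype effect differed between the conditions, tested as a limma contrast of the effect with TNF minus the effect untreated, for 7 of the 9 genes and 22 of the other genes named, Klf6 included. The list genes, 27 in all and not all reported here, were named for a large genotype effect in at least 1 condition. That choice favours a difference between the conditions, so their count cannot be set against the share of all genes. For the members the log2 difference was -3.22 for Arg1, -5.53 for Nos2, -2.53 for Slc7a1, -3.40 for Slc7a2, -1.44 for Ass1, -0.40 for Odc1 and -0.81 for Gch1. Klf6 itself differed by -0.33.

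Among polyamine genes the log2 difference was 0.36 for Sat1, -0.49 for Smox and -0.62 for Azin1. For the tetrahydrobiopterin genes it was 0.34 for Spr and 0.59 for Qdpr. In the ornithine, proline and creatine list it was -1.95 for Aldh18a1 and for Pycr1, -1.53 for Gatm, 1.39 for Glul and 0.60 for Got1. Pycr1 averaged 3.68 RPM in untreated Klf6fl/fl:Lyz2cre cells and 0.45 to 0.85 RPM in the other groups. Only the untreated Klf6fl/fl:Lyz2cre libraries took Pycr1 over the filter on low values, and its call depends on that. Transporters and sensors gave -0.34 for Slc7a6, -0.35 for Slc7a7, 1.37 for Castor1 and 0.92 for Castor2.

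Nitric oxide control genes gave 1.03 for Ddah2, -2.61 for Spsb1, 1.98 for Spsb4 and -2.57 for Gucy1b1. Gucy1b1 averaged 2.03 RPM in untreated Klf6fl/fl:Lyz2cre cells and 0.05 to 0.17 RPM in the other groups. Only the untreated Klf6fl/fl:Lyz2cre libraries took Gucy1b1 over the filter on low values, and its call depends on that. The transcription factors gave -2.60 for Irf1, -1.10 for Stat3 and 3.12 for Batf3, whose Lyz2cre libraries with TNF had no reads, so that its size depends on the pseudocount. Over all genes tested 48.9% passed this test.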

How the results depend on the processing

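Effects of the members kept their direction and side of the threshold in 397 recomputations and changed in 16, of which 5 reversed a value that had not passed. Scaled to total reads, 7038 genes were called higher and 1716 lower with TNF, or 80.4% higher in place of 46.2%; untreated 2408 were lower (68.0% higher in place of 48.5%), and for the difference 4930 were higher (69.2% in place of 49.2%). On that scale 5 members were higher with TNF, 1 was lower untreated and 1 was higher in the difference; Asl with TNF turned to 0.28 and Stat3 untreated to 0.0035. With edgeR, 4 members were higher with TNF. Without 1 library in turn, members higher in the difference numbered 0 to 1 (Asl, without replicate 2 of untreated Klf6fl/fl:Lyz2cre or replicate 3 of untreated Lyz2cre), the difference for Arg2 ranged from -0.21 to 0.70 and Qdpr with TNF from -0.035 to 0.063. The causes were not tested. In RPM the ratio for Asl in Klf6fl/fl:Lyz2cre cells turned to a log2 of 0.05.

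Replicate numbers share only a number: same-numbered libraries of the genotypes had correlations of deviations of -0.0209, -0.0123 and -0.0295 with TNF and 0.152, -0.0378 and 0.158 untreated. With the replicate block, 1 member was higher in the difference (Asl, 0.21, limma adjusted p = 0.0428), and 2988 genes were higher and 3485 lower with TNF. Depth limited Nos2 and Arg2 in untreated cells, where libraries held 0 to 36 reads. Untreated Lyz2cre libraries also held few reads of Arg1 (30, 23 and 23) and Ass1 (30, 24 and 31), so the untreated folds of both rest on low counts on that side.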

Other observations

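The genes whose pattern over the 12 libraries was most like that of Nos2 and of Arg1 were ranked among 13061 genes by the root-mean-square (RMS) difference of log2(RPM + 1) values centred on each gene's mean. The nearest to Nos2 was Slc7a2, the member that supplies its substrate, at 0.29, where Nos2 itself has an RMS deviation of 2.52. Slc7a2 averaged 99.5 RPM in Klf6fl/fl:Lyz2cre and 613 in Lyz2cre cells with TNF, and 12.7 and 8.47 untreated. Untreated Nos2 averaged only 1.26 RPM in Klf6fl/fl:Lyz2cre and 0.21 in Lyz2cre cells, where the 1 added to RPM narrows differences. As a ratio of deposited levels in Lyz2cre cells, Nos2 was 444-fold higher with TNF and Slc7a2 71.8-fold. The next were Tarm1 at 0.42, Gbp5 at 0.48, Cd69 at 0.51 and Spata13 at 0.54. Gbp5, a guanylate-binding protein induced by interferon, averaged 62.9 RPM in Klf6fl/fl:Lyz2cre and 699 in Lyz2cre cells with TNF, and 9.67 and 3.62 untreated.

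No gene lay as near to Arg1, whose own RMS deviation was 2.44. Genes near it were Hp at 1.09, Inhba at 1.11, Bmp1 at 1.17 and Tmem119 at 1.20. Hp, haptoglobin, averaged 77.7 RPM in Klf6fl/fl:Lyz2cre and 9.12 in Lyz2cre cells with TNF, and 66.8 and 7.88 untreated. Likeness here is a description over libraries that share their groups, and the genes were picked by it.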
